A study of Gallus gallus with 21 samples.

Results

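Acetylcholine signalling in the chicken retina was followed through 8 genes out of 18631 listed in the deposited expression table. The genes were chosen by symbol: CHAT, SLC18A3 and SLC5A7, which make, load and recover acetylcholine, ACHE, which breaks it down, and the muscarinic receptor genes CHRM2, CHRM3, CHRM4 and CHRM5. All 8 were listed, and all 8 passed a filter of at least 1 CPM on average (reads of a gene scaled to the total of its library), as did 11072 genes in all. The retinas came from wild-type White Leghorn chicks fitted at 3 days of age with lenses of -10 dioptres, which impose the defocus that makes a growing eye elongate. Lenses were worn for 1, 3 or 6 days, with 7 libraries at each time, made from total RNA after ribosomal RNA was removed. Every library came from a lens-wearing bird, so lens wear and age rose together and cannot be told apart. Whether each library is a bird of its own is not in the labels. The p-values therefore weigh differences against the scatter of these 21 libraries, part of which may be technical.

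In the vertebrate retina acetylcholine is released by a small class of amacrine cells, the starburst cells, which shape responses to moving stimuli. Choline acetyltransferase (CHAT) makes the transmitter from choline and acetyl-CoA. The vesicular transporter SLC18A3 loads it into vesicles, and after acetylcholinesterase (ACHE) has split it the choline returns through the high-affinity transporter SLC5A7. Muscarinic receptors are G protein-coupled. CHRM3 and CHRM5 act through the Gq class and phospholipase C, CHRM2 and CHRM4 through the Gi class, which lowers cyclic AMP. These receptors are of interest in myopia because atropine, a muscarinic blocker, slows eye elongation in children and in chicks.

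Depth was an estimated 30.8 to 49.3 M reads per library, 9.94 to 15.3 M of them in listed genes, when the commonest low CPM step of a library is taken as 1 read. W transcripts, which only hens carry, were present in 10 libraries (HINTW at 101 to 147 CPM) and near 0 in the other 11 (0.0243 to 0.598 CPM). Such libraries numbered 4 among the 7 of day 1, 1 among those of day 3 and 5 among those of day 6, and sex is not among the labels. Among photoreceptor markers PDE6C, a cone gene, fell to 196 ± 13.9 CPM on day 6, against 248 ± 24.2 CPM on day 1 (SD, n = 7 each; adjusted p = 0.0022). Of 6 general amacrine markers, GAD1, GAD2, PAX6, SLC6A9, TFAP2A and TFAP2B, 0 passed in a pairwise comparison. Of all genes, 3.31% passed on day 3 against day 1, 22.8% on day 6 against day 3 and 24.3% on day 6 against day 1. With 6 genes the count does not show that amacrine cells were steady. The part of such markers in the changes below was not tested. Of the cholinergic amacrine markers outside the 8 genes, MEGF10 averaged 20.4, ISL1 13.7, MEGF11 13.1 and SOX2 2.01 CPM, and FEZF1 stood near 0 at 0.0939 CPM. SOX2, a transcription factor also of Müller glia, rose on day 6 against day 3 (2.31 ± 0.307 and 1.76 ± 0.126 CPM, SD, n = 7 each; adjusted p = 0.019). The other 3 tested markers did not pass in any comparison, against the same shares of all genes. Of the 8 pigment epithelium markers only RPE65 reached 1 CPM, and the list summed to 2.43 to 10.9 CPM on day 1, 1.94 to 7.13 on day 3 and 2.30 to 8.24 on day 6. The 5 listed muscle markers summed to at most 1.10 CPM in a library. Among vessel markers KDR and PECAM1 averaged 35.5 and 17.3 CPM, while CDH5, TIE1 and ERG averaged 0.0569, 0.00853 and 0.0246 CPM, and the 6 markers summed to 51.1 to 62.5 CPM on day 1, 41.8 to 57.9 on day 3 and 45.4 to 66.6 on day 6. In bulk retina fewer cells of a type and less RNA per cell cannot be told apart.

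**Figure D1:**
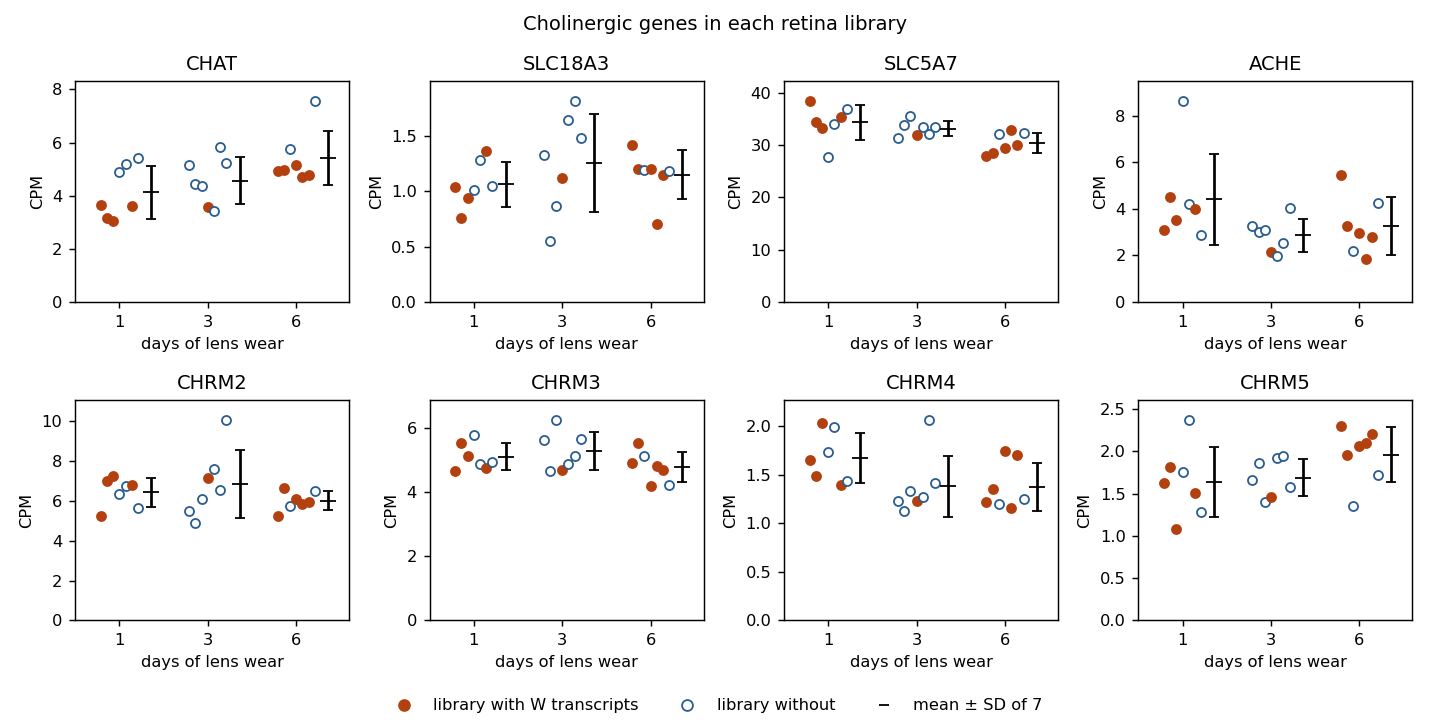
Levels in CPM (vertical axis, from 0) of the 8 genes in every library against days of lens wear. Filled points are libraries with W transcripts, open points those without, and black bars are mean ± SD of 7; the ranges of the 3 days overlap for every gene.

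Log2 changes of the 8 genes ran from -0.44 (ACHE, day 3 against day 1) to 0.33 (CHAT, day 6 against day 1). Most could not be told from the scatter of the libraries, which does not show that they were small. SLC5A7 fell slightly between day 1 and day 6, and it was the only 1 of the 8 to pass a pairwise test (limma, Benjamini-Hochberg adjusted p under 0.05). CHAT was highest on day 6, just short of the threshold, and did pass once the W-linked level of each library was taken into account. ACHE and CHRM4 had their highest means on day 1. Neither passed after adjustment, nor did SLC18A3, CHRM2, CHRM3 or CHRM5.

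The counts are set here beside those of the whole table, and with 8 genes a difference from the share of all genes was not tested. Between days 1 and 3, 0 of the 8 genes passed, against 3.31% of all tested genes (3.94% after median-of-ratios scaling and 3.82% with the W-linked level in the fit, each with 0 of the 8), and 2 had an unadjusted p under 0.05 (ACHE and CHRM4; 18.0% of all genes). Between days 3 and 6, 0 passed, against 22.8%, and 0 had an unadjusted p under 0.05, against 37.5%. Of all genes, 19.4% were higher and 3.44% lower on day 6 than on day 3. Between days 1 and 6, 1 passed, against 24.3% of all genes. An unadjusted p under 0.05 was found for 3 (CHAT, SLC5A7 and CHRM4; 37.5%). Of all genes, 19.8% were higher and 4.46% lower on day 6 than on day 1. After median-of-ratios scaling, which sets the typical gene equal between libraries, those shares were 8.50% and 8.96% against day 1 (17.5% in all, with SLC5A7 and CHRM4 passing, both lower) and 8.55% and 7.89% against day 3 (16.4% in all, with SLC5A7 passing, lower). An F test over the 3 days passed 0 of the 8 genes, against 29.7% of all genes (after median-of-ratios scaling 1, SLC5A7, against 23.2%), with CHAT and SLC5A7 at an unadjusted p under 0.05 (43.1% of all genes). The median log2 change of the 8 genes was 0.04 for day 3 against 1, -0.03 for day 6 against 3 and -0.08 for day 6 against 1. Over all tested genes it was -0.00058, 0.08 and 0.08. These medians describe the 8 genes and were not tested.

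**Figure D2:**
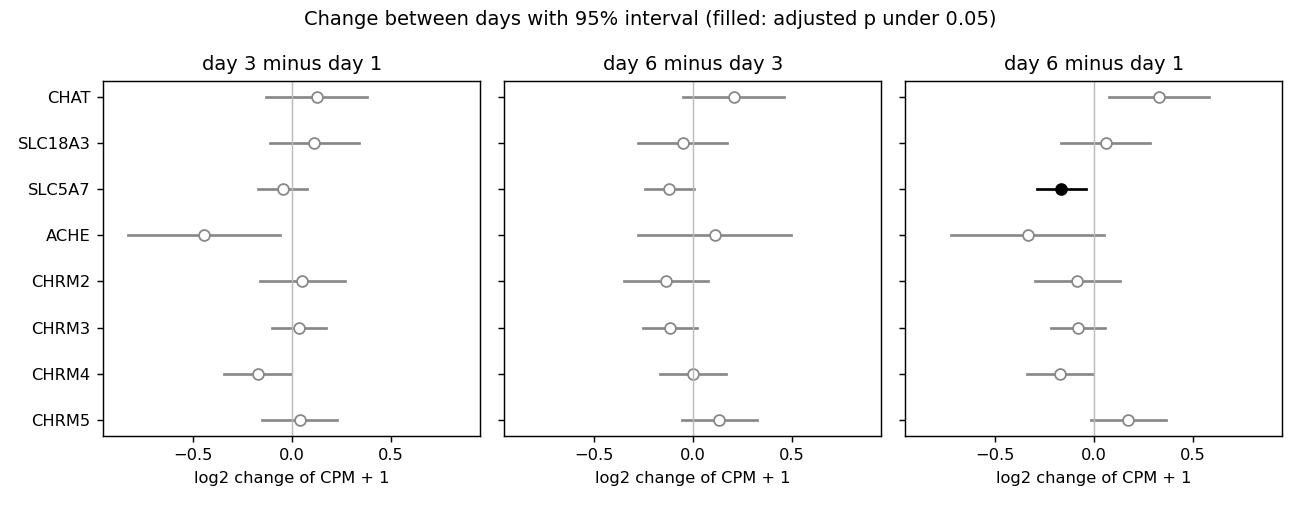
Log2 change of CPM + 1 (horizontal axis) with its 95% interval for the 8 genes in the 3 comparisons of days. The filled point, SLC5A7 on day 6 against day 1 at -0.16, is the only one with an adjusted p under 0.05.

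CHAT lies on chromosome 6 at 3647190 to 3684341 on the minus strand (GRCg6a, positions as listed). Its level ranged from 3.05 through a median of 3.65 to 5.42 CPM on day 1, from 3.42 through 4.43 to 5.84 CPM on day 3 and from 4.71 through 4.98 to 7.56 CPM on day 6. Day 6 had the highest floor, but its range overlapped those of both earlier days. The means were 4.13 ± 0.995, 4.57 ± 0.894 and 5.41 ± 1.01 CPM (SD, n = 7 each). The log2 change on day 6 against day 1 was 0.33 ± 0.12 (SE; 95% interval 0.08 to 0.58, adjusted p = 0.0523), with 7 of 7 day 6 libraries above the day 1 mean. On day 6 against day 3 it was 0.21 ± 0.12 (adjusted p = 0.227), and on day 3 against day 1 0.12 ± 0.12 (adjusted p = 0.631). For day 6 against day 1 the adjusted p came below 0.05 without day 1 replicate 4, 5 or 7 (0.0419, 0.0326 and 0.0270) or day 3 replicate 4, 5 or 6 (0.0487, 0.0478 and 0.0449). It was 0.121 without day 6 replicate 7, the library with the highest CHAT level, and 0.475 with only the 3 day 1 libraries of higher code numbers, where the change was 0.16. With only the 4 day 1 libraries of lower code numbers the change was 0.46 (adjusted p = 0.0173). Day 1 replicates 4, 5 and 7 were the 3 day 1 libraries without W transcripts. The lower numbers held W transcripts in 3 of 4 libraries, the higher numbers in 1 of 3. After median-of-ratios scaling the change was 0.25 (adjusted p = 0.141).

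The presence of W transcripts separated the CHAT values on days 1 and 6. On day 1 CHAT stood at 3.05 to 3.65 CPM in the 4 libraries with W transcripts and at 4.88 to 5.42 CPM in the 3 without. On day 3 the single library with them had 3.56 CPM and the 6 without had 3.42 to 5.84 CPM. On day 6 the 5 with them had 4.71 to 5.14 CPM and the 2 without 5.76 and 7.56 CPM. The groups did not overlap on days 1 and 6, while on day 3 a single library without W transcripts lay below the library with them. Over all days CHAT averaged 4.16 ± 0.822 CPM with W transcripts (SD, n = 10) and 5.20 ± 1.05 CPM without (n = 11). With day in the limma fit the log2 difference, with minus without, was -0.41 ± 0.07 (SE; 95% interval -0.56 to -0.26, adjusted p = 0.000419). An exact permutation of the W status within days gave a two-sided p of 0.000389 over 5145 arrangements. Over all tested genes 5.38% differed and 4.06% were lower with W transcripts. Leaving out any 1 of the 21 libraries kept the difference between -0.46 and -0.38, with adjusted p up to 0.00312. This comparison was made with results of these data known.

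Among tested genes on chromosomes other than Z and W, 1.46% differed and 0.458% were lower with W transcripts, 48 of 10483, and CHAT was 1 of them. On the Z chromosome, which cocks carry in a pair and hens singly, 402 of 556 tested genes were lower, with a median log2 difference of -0.41. The CHAT difference had the size of that median, whereas the median of the 10483 other genes was 0.00067. Only 11 of the 10483 passed with a difference as low as that of CHAT or lower, CHAT included. These values are on the scale of log2(CPM + 1). With log2(CPM + 0.1) the CHAT difference was -0.49, and the Z median on that scale is not given. The other 7 cholinergic genes had differences between -0.19 (ACHE) and 0.03 (CHRM2), and none passed (adjusted p of at least 0.618).

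Genes around CHAT were read for the same difference. Of 19 other tested genes within 500 kb, 0 passed, where 1.46% of all tested genes on chromosomes other than Z and W passed. With 19 genes, 0 lies near that share and does not set this stretch apart from others. Their log2 differences ran from -0.13 (GLUD1) to 0.40 (SYT15) with a median of -0.02. SLC18A3 is listed on the same strand 1889 bases from CHAT, with 0 listed genes between them, and its difference was -0.06 ± 0.10 (adjusted p = 0.815). The difference of CHAT exceeded that of SLC18A3 by -0.35 on the log2 scale (exact permutation of W status within days, two-sided p = 0.00641, 5145 arrangements), and by -0.38 with a pseudocount of 0.1 in place of 1 (p = 0.0482).

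**Figure D3:**
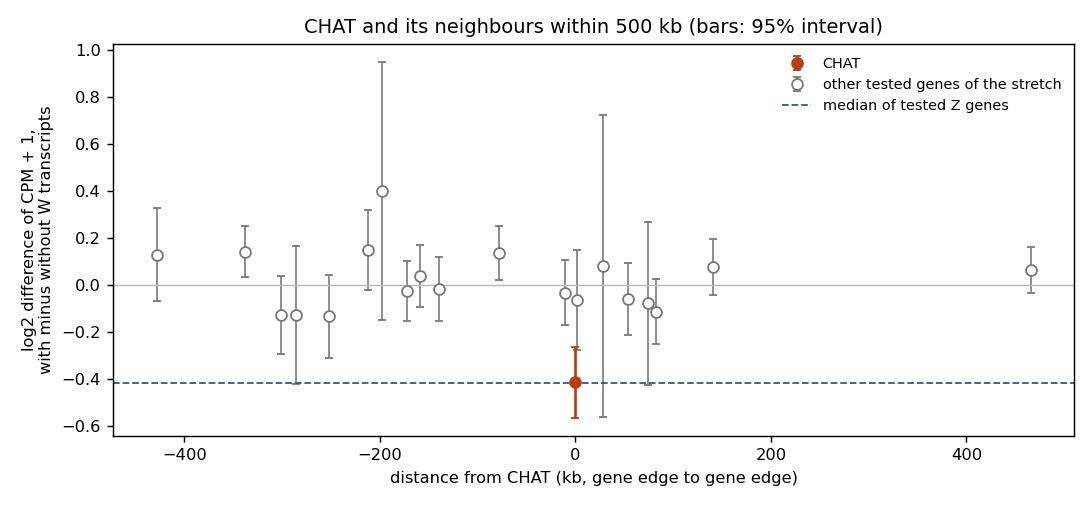
Log2 difference of CPM + 1, libraries with minus libraries without W transcripts, with 95% intervals (vertical axis) against distance from CHAT in kb (horizontal axis). CHAT lies at -0.41, on the dashed line that marks the median of tested Z genes, while the other 19 genes lie between -0.13 and 0.40.

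The W status also bears on the comparison of days, since its share differed between them. In a fit that held the W-linked level CHAT was 0.40 higher on day 6 than on day 1 (adjusted p = 0.00121; 21.7% of all genes were higher there) and 0.46 higher on day 6 than on day 3 (adjusted p = 0.00189; 17.5% were higher). It changed by -0.06 on day 3 against day 1 (adjusted p = 0.773), and CHAT was the only 1 of the 8 genes to pass the F test in that fit (adjusted p = 0.00105; 30.9% of all genes). That fit used CPM as deposited, and the W-linked level was not combined with median-of-ratios scaling. Within libraries that had W transcripts, CHAT averaged 4.91 ± 0.172 CPM on day 6 (SD, n = 5) and 3.37 ± 0.313 CPM on day 1 (n = 4). Those values did not overlap (log2 difference 0.44, exact two-sided permutation p = 0.0159). Within libraries without W transcripts, CHAT averaged 6.66 ± 1.27 CPM on day 6 (n = 2) and 5.16 ± 0.267 CPM on day 1 (n = 3). These did not overlap either (0.31), but the exact permutation p was 0.2 among 10 arrangements, a design that cannot go below 0.1. On day 6 against day 3 the difference without W transcripts was 0.42 (n = 2 and 6), with overlapping values (exact two-sided permutation p = 0.143). On day 3 against day 1 the difference without W transcripts was -0.11 (n = 6 and 3), also with overlapping values (exact two-sided permutation p = 0.429). Only 1 day 3 library had W transcripts, so comparisons with day 3 were not tested within libraries that had them. The split by W status was made for CHAT with results of these data known. The permutation p of these comparisons are not adjusted and are not support separate from the fits.

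**Figure D4:**
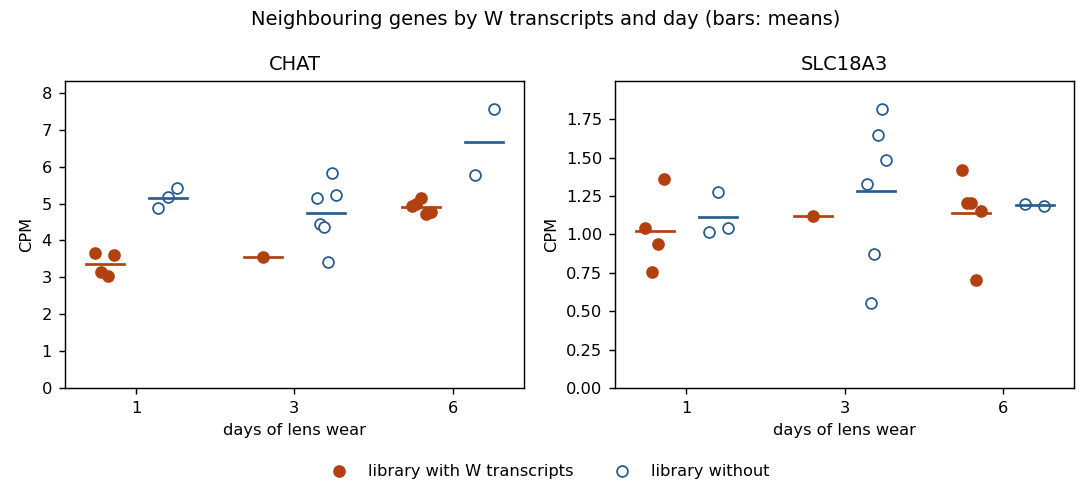
CHAT and its neighbour SLC18A3 in CPM (vertical axes, from 0) by days of lens wear, with libraries that had W transcripts (filled) left of those without (open) and bars for means. CHAT is lower in filled than in open points on days 1 and 6 without overlap; SLC18A3 overlaps on every day with more than 1 library of each kind.

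SLC18A3, on chromosome 6 at 3686230 to 3687799 on the minus strand, encodes the vesicular acetylcholine transporter. It was the least abundant of the 8 genes in reads, with an estimated 21 to 66 per library. Its level ranged from 0.758 through a median of 1.04 to 1.36 CPM on day 1, from 0.551 through 1.32 to 1.82 CPM on day 3 and from 0.701 through 1.20 to 1.42 CPM on day 6. The days overlapped almost fully. The log2 change was 0.11 ± 0.11 on day 3 against day 1, -0.05 ± 0.11 on day 6 against day 3 and 0.06 ± 0.11 on day 6 against day 1 (adjusted p = 0.628, 0.765 and 0.719). The last of these had a 95% interval of 0.893-fold to 1.22-fold. Counting error alone gives a coefficient of variation of about 14.9% at this depth, and the spread within days was 26.7%.

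SLC5A7, on chromosome 1 at 137342523 to 137368790 on the plus strand, encodes the high-affinity choline transporter. It was measured most precisely of the 8, with an estimated 987 to 1678 reads per library and a spread within days of 7.41%. Its level ranged from 27.7 through a median of 34.4 to 38.4 CPM on day 1, from 31.4 through 33.4 to 35.6 CPM on day 3 and from 27.9 through 30.1 to 32.8 CPM on day 6. The lowest value of all belonged to day 1, so the days overlapped, although 7 of 7 day 6 libraries lay below the day 1 mean. SLC5A7 fell to 30.4 ± 1.94 CPM on day 6, against 34.3 ± 3.41 CPM on day 1 (SD, n = 7 each; log2 change -0.16 ± 0.06, 95% interval 0.818-fold to 0.972-fold, adjusted p = 0.0487). It had a log2 change of -0.12 ± 0.06 on day 6 against day 3 (adjusted p = 0.152) and -0.05 ± 0.06 on day 3 against day 1 (adjusted p = 0.736).

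The SLC5A7 call lay at the threshold. It held without day 1 replicate 4 (adjusted p = 0.00563), day 3 replicate 3 or day 6 replicate 3, 5 or 7, and was lost when any other of the 21 libraries was left out (adjusted p = 0.0502 to 0.106). After median-of-ratios scaling SLC5A7 fell by 0.25 on day 6 against day 1 (adjusted p = 0.0127) and by 0.20 on day 6 against day 3 (adjusted p = 0.0417). Pooled over days, no difference by W transcripts was detected in SLC5A7 (log2 difference, with minus without, -0.0041 with a 95% interval of -0.12 to 0.11). With the W-linked level in the fit its change on day 6 against day 1 was -0.16 (adjusted p = 0.0529). The sign differed between days 1 and 6. With W transcripts SLC5A7 averaged 35.35 ± 2.205 CPM on day 1 (SD, n = 4) and 29.74 ± 1.916 CPM on day 6 (n = 5), without overlap. Without them it averaged 32.91 ± 4.741 CPM on day 1 (n = 3) and 32.1 ± 0.1261 CPM on day 6 (n = 2). Whether the fall differed by W status was not tested.

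ACHE, listed at 2206372 to 2215402 on the plus strand of a sequence given no chromosome number here, encodes the enzyme that ends the acetylcholine signal. It varied most of the 8 genes within days, by 39.8%, against a counting error of 8.52%. Its level ranged from 2.89 through a median of 3.98 to 8.62 CPM on day 1, from 1.97 through 2.99 to 4.01 CPM on day 3 and from 1.84 through 2.94 to 5.46 CPM on day 6. A single day 1 library, replicate 4, stood at 8.62 CPM, and the other 6 of that day lay between 2.89 and 4.50 CPM. All 7 day 3 libraries were below the day 1 mean on the log2 scale. The log2 change was -0.44 ± 0.19 on day 3 against day 1 (unadjusted p = 0.0256, adjusted p = 0.211). Without day 1 replicate 4 it was -0.29 (adjusted p = 0.348). On day 6 it was 0.11 ± 0.19 against day 3 and -0.33 ± 0.19 against day 1 (adjusted p = 0.699 and 0.192), and the second of these was -0.18 without that library.

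CHRM3 and CHRM5 are the receptor genes of the Gq class. CHRM3 (chromosome 3, 36486653 to 36660302, minus strand) ranged from 4.67 through a median of 4.95 to 5.79 CPM on day 1, from 4.64 through 5.12 to 6.26 CPM on day 3 and from 4.20 through 4.81 to 5.54 CPM on day 6. It was the steadiest receptor gene, with a spread within days of 9.95%, close to the counting error of 7.11%. Its log2 change was 0.04 ± 0.07 on day 3 against day 1, -0.12 ± 0.07 on day 6 against day 3 and -0.08 ± 0.07 on day 6 against day 1 (adjusted p = 0.814, 0.202 and 0.399). The 95% intervals of these changes lay between 0.840-fold and 1.13-fold.

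CHRM5 (chromosome 5, 30279476 to 30329608, minus strand) ranged from 1.08 through a median of 1.62 to 2.38 CPM on day 1, from 1.40 through 1.66 to 1.95 CPM on day 3 and from 1.35 through 2.06 to 2.30 CPM on day 6. The highest value was that of a day 1 library, replicate 5. The log2 change on day 6 against day 1 was 0.17 ± 0.09, with 6 of 7 libraries above the day 1 mean (adjusted p = 0.170), and without that library it was 0.23 and passed (adjusted p = 0.0476). The other changes were 0.04 and 0.13, on day 3 against day 1 and day 6 against day 3 (adjusted p = 0.865 and 0.3002).

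CHRM2 and CHRM4 are the receptor genes of the Gi class. CHRM2 (chromosome 1, 57798522 to 57897280, minus strand) ranged from 5.25 through a median of 6.74 to 7.27 CPM on day 1, from 4.88 through 6.55 to 10.1 CPM on day 3 and from 5.22 through 5.97 to 6.63 CPM on day 6. Day 3 held both its lowest and its highest library. The log2 change was 0.05 ± 0.10 on day 3 against day 1 (adjusted p = 0.836), and -0.04 without day 3 replicate 7, the library at 10.1 CPM. On day 6 it was -0.14 ± 0.10 against day 3 and -0.08 ± 0.10 against day 1 (adjusted p = 0.348 and 0.582), and the first of these was -0.05 without that library.

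CHRM4 (chromosome 5, 23869358 to 23884169, plus strand) ranged from 1.40 through a median of 1.65 to 2.03 CPM on day 1, from 1.12 through 1.27 to 2.07 CPM on day 3 and from 1.16 through 1.25 to 1.75 CPM on day 6. In 6 of 7 day 3 libraries and 5 of 7 day 6 libraries it was below the day 1 mean. The log2 change was -0.17 ± 0.08 on day 3 against day 1 (adjusted p = 0.269) and -0.17 ± 0.08 on day 6 against day 1 (adjusted p = 0.126), with unadjusted p of 0.0456 and 0.0463. On day 6 against day 3 it was 0.00061 ± 0.08 (adjusted p = 0.996). After median-of-ratios scaling CHRM4 fell by 0.22 on day 6 against day 1 (adjusted p = 0.0428). Without day 3 replicate 6, which at 2.07 CPM stood apart from the other 6 at 1.12 to 1.42 CPM, the change on day 3 against day 1 was -0.23 (adjusted p = 0.0750), and CHRM4 passed the F test over days (adjusted p = 0.0309).

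No correlation among the 3 presynaptic genes across libraries passed a permutation test. Pearson's r of log2 levels over 21 libraries was 0.27 for CHAT and SLC18A3 (permutation p = 0.233, Spearman's rho 0.42 with permutation p = 0.0633), -0.32 for CHAT and SLC5A7 (p = 0.156, rho -0.25 with p = 0.266) and -0.23 for SLC18A3 and SLC5A7 (p = 0.316, rho -0.27 with p = 0.238). After Benjamini-Hochberg adjustment over the 3 pairs all 3 Pearson p were 0.316, and the lowest Spearman p was 0.190. Without the 2 libraries farthest from the median of the first gene r was 0.26, -0.38 and -0.22. Within days 1, 3 and 6 (n = 7 each) r was 0.42, 0.24 and 0.22 for CHAT and SLC18A3. It was -0.18, -0.23 and 0.44 for CHAT and SLC5A7, and 0.13, -0.50 and -0.69 for SLC18A3 and SLC5A7, so that both these pairs changed sign between days.

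The 3 genes most like CHAT across libraries lay on the Z chromosome. They were TPGS2 (Pearson's r 0.87, n = 21), APTX (0.85) and UBE2R2 (0.84). Their r was 0.90, 0.73 and 0.79 within the libraries with W transcripts (n = 10) and 0.84, 0.86 and 0.81 within those without (n = 11). Without the 2 libraries farthest from the CHAT median it was 0.81, 0.79 and 0.79. Of the 20 named genes with the highest r to CHAT, 15 were Z genes, where 5.02% of tested genes are on Z. Of the 20 most like ACHE, 0 were, and both counts were added after the first 3 genes had been seen. In these libraries 402 of 556 tested Z genes were lower with W transcripts, as CHAT was. The count of Z genes is therefore not separate from the W difference of CHAT. The genes named here were picked for their r over the same 21 libraries, so the values describe that choice. All libraries enter each value with the depth they share, so r describes these libraries. The genes most like ACHE were CACNA1B, ATXN1 and TFAP2B (r of 0.80, 0.75 and 0.74), falling to 0.61, 0.53 and 0.49 without the 2 libraries farthest from the ACHE median. For CHRM2, the receptor gene with the highest mean CPM, they were EPHA3, ADAM11 and SERGEF (0.67, 0.64 and 0.63), falling to 0.27, 0.52 and 0.30, so that those of EPHA3 and SERGEF rest largely on 2 libraries.

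Other genes were read from 5 lists drawn up around the cholinergic pathway, with 61 genes, of which 54 were listed and 49 tested. The list names tell why a gene was read. In bulk retina a change of such a gene cannot be assigned to cholinergic cells or to acetylcholine. Between days 1 and 3, 2 of the 49 rose and 1 fell, or 6.12% of the lists against 3.31% of all genes, and after median-of-ratios scaling 1 rose and 1 fell (4.08% against 3.94%). Between days 3 and 6, 9 rose and 3 fell, or 24.5% of the lists against 22.8% of all genes, and after that scaling 3 rose and 7 fell (20.4% against 16.4%). Between days 1 and 6, 11 rose and 2 fell, or 26.5% against 24.3%, and after that scaling 5 rose and 7 fell (24.5% against 17.5%). The median log2 change of the 49 genes was -0.01, 0.06 and 0.08 in these comparisons. Differences between these shares and those of all genes were not tested.

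Nicotinic receptor subunits, the other class of acetylcholine receptor, moved in both directions: of 9 tested genes 3 rose and 2 fell between days 1 and 6, where 19.8% of all genes rose and 4.46% fell. Median-of-ratios scaling left 1 that rose and 2 that fell, where 8.50% of all genes rose and 8.96% fell. Between days 1 and 3, 1 of the 9 rose (11.1% against 3.31% of all genes), and between days 3 and 6, 0 passed (against 22.8%). After that scaling 1 rose (11.1% against 3.94%) and 2 fell (22.2% against 16.4%) in these comparisons. CHRNA7L, the alpha8 subunit gene that RefSeq calls CHRNA8, fell to 25.97 ± 1.98 CPM on day 6, against 32.4 ± 3.03 CPM on day 1 (adjusted p = 0.00309), and CHRNA5 fell by 0.23 on the log2 scale (adjusted p = 0.0208). CHRNA4, near the filter of 1 CPM at 1.635 ± 0.342 CPM on day 6 and 1.05 ± 0.163 CPM on day 1 (SD), rose by 0.35 (adjusted p = 0.0214). CHRNB4 rose by 0.25 (adjusted p = 0.00949). CHRNB4 had already risen by 0.28 on day 3 against day 1 (adjusted p = 0.0195). CHRNB3, named here after its values were seen, rose by 0.40 (adjusted p = 0.0459). CHRNA7L and CHRNB3 lie on the Z chromosome. With the W-linked level in the fit their changes on day 6 against day 1 were -0.30 and 0.49 (adjusted p = 0.0039 and 0.00061). After median-of-ratios scaling CHRNB4 and CHRNB3 no longer passed on day 6 against day 1 (adjusted p = 0.0662 and 0.121), and with the W-linked level in the fit the day 3 rise of CHRNB4 did not (0.24, adjusted p = 0.0533).

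Of 15 tested genes of choline handling and acetyl-CoA supply, 4 rose and 0 fell between days 1 and 6, or 26.7% against 24.3% of all genes, and 4 rose and 1 fell between days 3 and 6, or 33.3% against 22.8%. After median-of-ratios scaling the counts were 3 and 0 (20% against 17.5%) and 2 and 2 (26.7% against 16.4%). ACLY, which makes cytosolic acetyl-CoA from citrate, was at 21.5 ± 1.47 CPM on day 6, against 15.2 ± 2.72 CPM on day 3 (0.49 ± 0.09, adjusted p = 0.000908), and was also higher than on day 1 (0.36, adjusted p = 0.00671). CS, the citrate synthase gene, rose by 0.57 ± 0.17 on day 6 against day 3 (adjusted p = 0.0179). Its levels were low, at 3.21 ± 0.751 CPM on day 6 and 1.905 ± 0.8455 CPM on day 3 (SD). Against day 1 CS did not pass, at -0.35 on day 3 and 0.22 on day 6 (adjusted p = 0.269 and 0.357). PCYT1A, which commits phosphocholine to membrane lipid, and PEMT, which makes phosphatidylcholine by methylation, rose by 0.52 and 0.39 on day 6 against day 1 (adjusted p = 0.00502 and 0.00386), and PEMT by 0.29 against day 3 (adjusted p = 0.0246; 0.0787 after median-of-ratios scaling). Outside the rule for named genes, ACSS2 rose by 0.27 on day 6 against day 1 (adjusted p = 0.0449), and on day 6 against day 3 CEPT1 rose by 0.15 (adjusted p = 0.0433) and the Z-linked choline transporter gene SLC44A1 fell by 0.43 (adjusted p = 0.0248). With the W-linked level in the fit the SLC44A1 change was -0.08 (adjusted p = 0.246), and after median-of-ratios scaling ACSS2 and CEPT1 no longer passed (adjusted p = 0.144 and 0.385).

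Of 23 tested genes of muscarinic signalling, 1 rose and 1 fell between days 1 and 3, 5 rose and 2 fell between days 3 and 6, and 4 rose and 0 fell between days 1 and 6. These are 8.70%, 30.4% and 17.4% of the list, against 3.31%, 22.8% and 24.3% of all genes. Under median-of-ratios scaling the counts up and down were 0 and 1, 1 and 3, and 1 and 5. Those are 4.35%, 17.4% and 26.1% of the list, against 3.94%, 16.4% and 17.5% of all genes. Genes below were named by their calls before that scaling. GRK3, a kinase that desensitises G protein-coupled receptors, fell to 35.6 ± 2.57 CPM on day 3, against 41.0 ± 2.35 CPM on day 1 (adjusted p = 0.0340). It then rose to 47.9 ± 2.25 CPM on day 6, against 35.6 ± 2.57 CPM on day 3 (0.42 ± 0.05, adjusted p = 5.81e-05). ITPR1, the calcium release channel opened by inositol trisphosphate, rose by 0.24 on day 6 against day 1 (adjusted p = 0.0005). PRKCB, a protein kinase C, rose by 0.24 on day 6 against day 3 (adjusted p = 0.00526) but did not pass on day 6 against day 1 (0.13, adjusted p = 0.0946). ADCY1, an adenylate cyclase, rose by 0.14 on day 6 against day 1 (adjusted p = 0.0188). GRK3 was also 0.22 higher on day 6 than on day 1 (adjusted p = 0.00441). Of the 4 genes that rose between days 1 and 6, ITPR1 alone passed after median-of-ratios scaling (adjusted p = 0.0356), against 0.387 for ADCY1, 0.0776 for GRK3 and 0.469 for RGS7, and PRKCB on day 6 against day 3 had 0.0514. The 2 that fell between days 3 and 6 are named after their values were seen. GNAQ, the Z-linked gene of the Gq alpha subunit, fell by 0.30 (adjusted p = 0.0291; 0.370 with the W-linked level in the fit). PLCB1, a phospholipase C gene, fell by 0.13 (adjusted p = 0.0496; 0.0677 in that fit). RGS7, likewise named after its values were seen, rose by 0.21 on day 3 against day 1 (adjusted p = 0.0394; 0.0534 after median-of-ratios scaling) and by 0.16 on day 6 against day 1 (adjusted p = 0.0471). Of the 2 tested cholinesterase partners, 0 passed in any comparison.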

How the data were processed

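The authors deposited CPM, with 0.0001 added to each value, which was subtracted. STAR, Partek and build GRCg6a are named in the tools listed, per the submitters' processing notes, without settings. Per the labels' protocols, libraries were stranded and depleted of ribosomal RNA. Of low values, 94.6 to 95.5% were whole multiples of a library's commonest low step within 0.1, so whole reads are not claimed, no count test was run, and read numbers are estimates. Listed genes held 30.4 to 33.3% of the CPM scale. The share was 30.65 to 31.21% on day 1, 30.35 to 32.22% on day 3 and 31.74 to 33.25% on day 6, so days 1 and 6 did not overlap. The part of this shift in the changes between days was not tested.

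Tests used limma 3.58.1 in R 4.3.3 on log2(CPM + 1), which understates changes of low genes, with 1 mean per day over 21 libraries and Benjamini-Hochberg adjustment over 11072 genes averaging 1 CPM or more. Counting errors cover counting alone. The procedure was tested on simulated data. Code numbers in the sample names differ between days, and replicates are numbered in order of accession, so nothing pairs libraries. The 8 genes, the lists and the comparison by W transcripts (HINTW above 10 CPM) were chosen with earlier results of these data known. Named genes are the 8, up to 12 list genes with the lowest adjusted p, and the 3 genes most correlated with CHAT, ACHE and the most abundant receptor gene. Chromosome names follow the RefSeq gene table of GRCg7b. CPM is not scaled to length, so levels are not compared between genes. Alternatives were another pseudocount, filter, scaling, variance model, covariates, fits of fewer days and leaving out libraries. Python 3.11.15 and scipy 1.17.1 were used.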

Additional observations from a re-analysis of the deposited data

Results flagged for a closer look

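Of 24 groups of 7 libraries (8 genes on 3 days), 4 held a library whose gap to its nearest neighbour was large against the range of its group. Chance gives about 1 in 20 for 7 values of a single normal distribution. These groups mix libraries with and without W transcripts, and the share over all genes is not given, so 4 is not read as an excess. CHAT stood at 7.56 CPM in day 6 replicate 7, against 4.71 to 5.76 CPM in the other 6. The library at 5.76 CPM was the only other day 6 library without W transcripts. SLC18A3 stood at 0.701 CPM in day 6 replicate 5, against 1.15 to 1.42 CPM in the others. ACHE stood at 8.62 CPM in day 1 replicate 4, against 2.89 to 4.50 CPM. CHRM4 stood at 2.07 CPM in day 3 replicate 6, against 1.12 to 1.42 CPM. The 4 values came from 4 different libraries.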

How the results depend on the processing

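The change of SLC5A7 on day 6 against day 1 kept its sign in all 32 alternatives and passed in 9, and CHAT, short of the threshold, also passed in 9. Of the 8 genes, 1 passed on day 6 against day 1; the number was 0 with log2(CPM + 0.1), with a filter of 0.1 CPM, with no filter, with both changes together and with only the 2 days fitted, 2 after median-of-ratios scaling and 2 with limma trend and robust, and 0 to 2 on leaving out 1 library. On day 6 against day 3, 0 passed, but 1 after median-of-ratios scaling and 1 with the W-linked level in the fit. By the F test 0 passed, but 1 under each of these, and 0 to 1 on leaving out 1 library. Of the pathway genes, 3 passed on day 3 against day 1, 1 with log2(CPM + 0.1) and a filter of 0.1 CPM, 1 with only the 2 days, and 1 to 3 on leaving out 1 library; on day 6 against day 3 the range was 6 to 14 around 12, and on day 6 against day 1 the 13 became 5 with the day 1 libraries of higher numbers and 9 to 14 on leaving out 1 library. On day 6 against day 1 the share of all genes was 24.3% in the main fit and 17.5% after median-of-ratios scaling. For most other alternatives the share of all genes is not given. The counts of this paragraph therefore show how the calls vary and are not set against all genes.

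Sign changes concerned only changes that had not passed. On day 3 against day 1, CHAT was -0.0591 with the W-linked level in the fit and -0.0436 with the day 1 libraries of higher numbers, SLC18A3 was -0.0035 and CHRM5 -0.0019 with those libraries, and CHRM3 was -0.0036 with those of lower numbers. SLC18A3 on day 6 against day 1 was -0.0544 with those of higher numbers. CHRM4 on day 6 against day 3 was -0.0472 after median-of-ratios scaling, -0.0039 with the W-linked level and -0.0115 with the code number set as covariate, and the W difference of SLC5A7 was 0.0147 after that scaling. On leaving out 1 library, CHRM2 ran from -0.0352 to 0.117 and CHRM5 from -0.0143 to 0.102 on day 3 against day 1, SLC18A3 from -0.137 to 0.0064 and CHRM4 from -0.0354 to 0.0631 on day 6 against day 3, and the W differences of SLC5A7 from -0.0585 to 0.0159, CHRM4 from -0.0191 to 0.037 and CHRM5 from -0.0656 to 0.0806. The causes were not tested. No paired analysis was possible because replicate numbers follow accession order and the code numbers differ between days. Depth was lowest for SLC18A3, CHRM4 and CHRM5, with at most 117 estimated reads per library, where counting gives a coefficient of variation of 14.9, 13.2 and 12.01% beside a spread within days of 26.7, 18.6 and 18.8%.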

Other observations

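SLC18A3 is given here by the code numbers in the sample names, whose meaning the labels do not give. On day 3 the 3 libraries of higher numbers averaged 1.65 ± 0.167 CPM (SD) and the 4 of lower numbers 0.967 ± 0.334 CPM. On day 1 the 3 of higher numbers averaged 1.23 ± 0.164 CPM and the 4 of lower numbers 0.938 ± 0.127 CPM, which did not pass (limma, log2 difference 0.20, unadjusted p = 0.0471, adjusted p = 0.202), and on day 6 the order was the opposite, with 1.06 ± 0.241 CPM in 4 and 1.27 ± 0.128 CPM in 3. The sets were chosen with results known, and the differences on days 3 and 6 were not tested for this gene. Such differences were not particular to SLC18A3. On day 3 CHRM2 averaged 8.07 ± 1.82 CPM in the 3 libraries of higher numbers and 5.90 ± 0.967 CPM in the 4 of lower numbers. On day 6 CHRM3 averaged 4.48 ± 0.317 CPM in the 4 of higher numbers and 5.19 ± 0.324 CPM in the 3 of lower numbers. Neither was tested.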
